A study of Danio rerio with 13 samples.

Results

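The skin of zebrafish that carry a mutant allele of tert was compared with wild-type skin across all measured genes. The carriers were all 8 of the 13 samples whose labels give at least 1 mutant copy: 3 homozygous fish (tert-/-, 2 mutant copies) and 5 heterozygous fish (tert+/-, 1 mutant copy). The other 5 samples were wild type (WT). Every sample was skin RNA of a male of 3 months on the AB background, and the mutant fish came from the tert hu3430 line, in which a premature stop codon lies in the gene. Carriers of 1 and 2 mutant copies were pooled, so a value over the carriers belongs to neither genotype alone, and the values of both genotypes are given beside it. The labels number the samples separately but tie none to a named fish, so every p-value rests on the differences among these samples, which may be technical. RNA abundance in whole skin does not separate fewer cells of a type from less RNA per cell.

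tert encodes the reverse transcriptase of telomerase, the enzyme that adds telomeric repeats to chromosome ends. Without it telomeres shorten with each cell division, and zebrafish tert mutants are used as a model of early ageing, in which renewing tissues such as gut, testis and blood are affected first. Fish skin is a renewing epithelium over a collagen-rich dermis with scales, pigment cells, vessels, nerves and resident immune cells. The library kit does not mark strand, so reads of overlapping or antisense genes cannot be told apart.

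The libraries held between 15709310 and 30249877 gene counts in carriers and between 17782298 and 28811050 in WT skins, a difference smaller than the spread (exact two-sided permutation test p = 0.895). Mitochondrially encoded genes took 41.7% ± 12 of counts in carriers (SD, n = 8) and 31.2% ± 7.72 in WT skins (SD, n = 5), a difference of 10.4 percentage points (exact permutation test, p = 0.116). The keratin gene krt5 lay between 6611 and 13923 counts per 1000000 (CPM) in carriers and between 4031 and 20463 CPM in WT skins, and the epithelial markers krt4, tp63, cdh1 and epcam were present in all 13 libraries. Defining markers of other types differed among themselves. Of melanophore markers, dct was near 0, and tyr and both mitfa genes were at most 1.91 CPM. In contrast, pmela lay between 4.41 and 23.3 CPM in carriers and between 5.84 and 23.7 CPM in WT skins. Of fat cell markers, plin1 was at 0 in 12 libraries. The 2 adipoqb genes reached 33.8 CPM (ENSDARG00000100086) and 5.40 CPM (ENSDARG00000062228) in carriers, and 6.73 and 2.57 CPM in WT skins. WT5 stood apart: its median Spearman correlation with the other libraries was 0.851, the lowest of 13, and it held the highest level of 13.4% of all tested genes. As described below, WT5 and WT1 carried liver transcripts, and list counts that moved by 2 or more genes are given with and without them. Leaving out these WT skins and no carrier in itself raises the fold change of any gene that was high in them.

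Of the 18250 genes tested, 0 had an adjusted p under 0.05 between carriers and WT skins (0%; edgeR quasi-likelihood test with Benjamini-Hochberg adjustment, smallest adjusted p 0.443). At an unadjusted p under 0.05, 223 genes were higher in carriers (1.22%) and 583 were lower (3.19%), 4.42% in all. This share is below the 0.05 that would pass if no gene differed. With no scaling of libraries these were 45 and 960, and without WT1 and WT5 they were 516 and 480 (2.83% and 2.64% of 18208). DESeq2, the alternative test, called 205 of 21770 genes (0.942%), of which 13 were higher and 192 lower (0.0597% and 0.882%). Of these 192 lower genes, 188 had their highest level in WT5. DESeq2 called 0 genes without WT1, 2 without WT5 (zgc:172053 and grna.1) and 4 without both. Set against WT one genotype at a time, tert+/- skins had 0 genes past the adjusted threshold and 929 at an unadjusted p under 0.05 (5.09%, with 1.96% higher and 3.13% lower), and tert-/- skins had 0 and 422 (2.31%, with 0.674% higher and 1.64% lower). Both genotype comparisons use the same 5 WT samples. Genes are therefore named here by unadjusted p from edgeR unless stated, none of them passed the adjustment in that test, and the adjusted p of the 806 genes lay between 0.443 and 1.0. Below, higher and lower in carriers, and a threshold passed, mean an unadjusted p under 0.05 in edgeR.

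tert itself was higher in the skins that carry its mutation. Its level was 15.7, 16.4 and 37.4 CPM in tert-/- skins and 16.9, 23.4, 19.1, 14.5 and 40.4 CPM in tert+/- skins, against 12, 13.5, 9.26, 7.05 and 11.7 CPM in WT skins. Every carrier lay above the highest WT skin, with a log2 fold change of 1.1 ± 0.30 (SE; edgeR adjusted p = 0.44), and DESeq2 gave an adjusted p of 0.034. The value was 1.09 in tert+/- skins and 1.11 in tert-/- skins against WT, and tert-/- minus tert+/- was 0.02 ± 0.38 (SE). Leaving out each library in turn kept the log2 fold change between 0.93 and 1.17, but DESeq2 no longer called tert without WT1 or without WT5.

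For 8 genes every carrier lay above every WT skin (0.0438% of tested genes), and for 1 gene every carrier lay below (0.00548%). Of the 8, 6 averaged at least 1 CPM: tert, cd34, rbms1, ddit3, zgc:64051 and dnase1l4.2. cd34, which encodes a surface sialomucin of blood progenitors and vessel lining cells in mammals, had the smallest p of all genes higher in carriers. Its level was 16.4, 18.2 and 14.4 CPM in tert-/- skins and 19.4, 23.2, 16.6, 19 and 14.5 CPM in tert+/- skins, against 9.68, 12.7, 9.22, 6.71 and 10.3 CPM in WT skins, with a log2 fold change of 0.87 ± 0.17 (SE; edgeR adjusted p = 0.44) and an adjusted p of 0.0033 in DESeq2. DESeq2 no longer called cd34 without WT1 or without WT5. rbms1 encodes a single-stranded nucleic acid binding protein. It was measured at 24, 18.2 and 20.5 CPM in tert-/- skins and 21.5, 26.2, 16.6, 19.9 and 24.1 CPM in tert+/- skins, against 13.9, 14.1, 14.3, 15.7 and 15 CPM in WT skins. Its WT levels were tight, and its log2 fold change was 0.55 ± 0.13 (SE). With no scaling of libraries the rbms1 value was 0.36 and did not pass the threshold, while those of tert (0.82) and cd34 (0.63) did.

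ddit3, the stress-induced transcription factor also called CHOP, stood at 15.7, 14.4 and 22.6 CPM in tert-/- skins and 16.8, 25, 24, 16.7 and 18.4 CPM in tert+/- skins, against 10.4, 10.4, 14.3, 14.2 and 12.8 CPM in WT skins. The lowest carrier was just above the highest WT skin, and the log2 fold change was 0.63 ± 0.17 (SE). DESeq2 did not call ddit3 (adjusted p = 0.073). dnase1l4.2, a member of the DNase I family, had a log2 fold change of 0.61 ± 0.19 (SE), and zgc:64051, which has no descriptive name, of 0.72 ± 0.20 (SE). DESeq2 did not call dnase1l4.2 (adjusted p = 0.105). It called zgc:64051 with all libraries (adjusted p = 0.047), but not without WT1 or without WT5. With no scaling of libraries ddit3, dnase1l4.2 and zgc:64051 had values of 0.40, 0.37 and 0.46 and did not pass the threshold. The other members without overlap averaged under 1 CPM: slc6a18, described below, and pkhd1l1 (ENSDARG00000091116), which lay between 0.247 and 1.15 CPM in carriers and between 0 and 0.223 CPM in WT skins. The 1 gene with every carrier below every WT skin, ENSDARG00000092267, was also weak, at 0.327 to 0.549 CPM in carriers and 0.578 to 0.726 CPM in WT skins. pkhd1l1 and ENSDARG00000092267 were named after their values were seen.

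**Figure D1:**
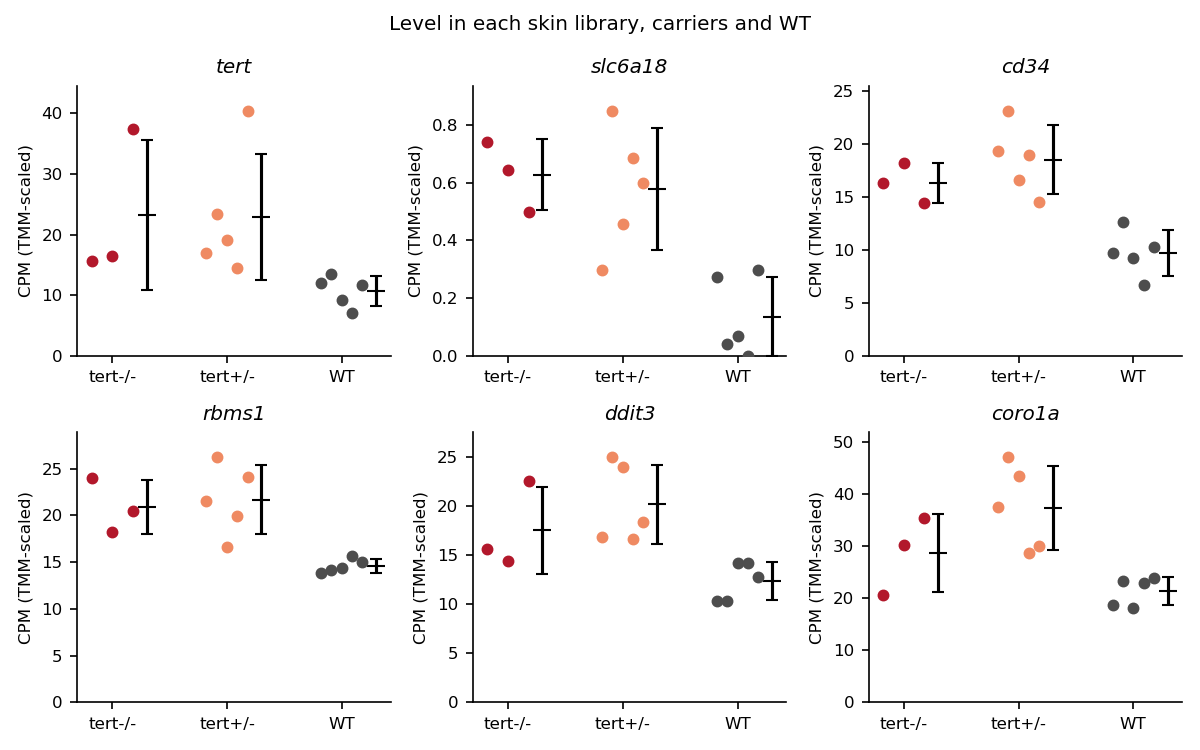
Level of tert, slc6a18, cd34, rbms1, ddit3 and coro1a in CPM on linear axes from 0, with 1 point per library and the mean and SD of each group beside its points, for tert-/-, tert+/- and WT skins. In the first 5 genes every carrier lies above every WT skin, and in coro1a 7 of 8 do.

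Other genes with the smallest p among those higher in carriers were less even between fish. The unnamed gene ENSDARG00000097513 stood at 33.7, 19.1 and 36.7 CPM in tert-/- skins and 7.44, 31.3, 46.8, 39.5 and 17.6 CPM in tert+/- skins, against 6.75, 8.72, 9.26, 11.4 and 9.56 CPM in WT skins. 1 tert+/- skin lay within the WT range, and the fit gave a log2 fold change of 1.67 ± 0.37 (SE; edgeR adjusted p = 0.44). si:dkey-10f21.16 was close to a presence and absence pattern. It had 117, 75 and 50 counts in tert-/- skins, 0, 0, 80, 153 and 1 counts in tert+/- skins, against 1, 0, 0, 0 and 2 counts in WT skins. All 3 tert-/- skins and 2 of 5 tert+/- skins thus held the transcript. grna.1, a progranulin gene, stood at 1.46, 2.97 and 3.99 CPM in tert-/- skins and 1.37, 2.19, 4.0, 3.74 and 4.01 CPM in tert+/- skins, against 0.242, 1.23, 0.634, 0.463 and 1.56 CPM in WT skins, with a log2 fold change of 1.83 ± 0.46 (SE; edgeR adjusted p = 0.44).

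The mutant allele of a line is inherited together with the chromosome around it, so the genes beside tert on chromosome 19 were examined by gene order. Of the 25 protein-coding genes on each side, 35 were tested and 0 were called. 2 were higher and 1 lower at an unadjusted p under 0.05 (8.57%, against 4.42% over all genes), and over the whole of chromosome 19 it was 29 of 579 (5.01%). slc6a18, the next gene after tert and a member of the neurotransmitter and amino acid transporter family, stood at 0.742, 0.643 and 0.498 CPM in tert-/- skins and 0.298, 0.85, 0.458, 0.687 and 0.60 CPM in tert+/- skins, against 0.272, 0.0411, 0.0704, 0 and 0.298 CPM in WT skins. All carriers were above all WT skins, but the lowest carrier and the highest WT skin were equal to 3 digits and the counts were 5 to 32 in carriers and 0 to 9 in WT skins. Its log2 fold change was 2.02 ± 0.55 (SE; DESeq2 adjusted p = 0.013), and DESeq2 no longer called it without WT1 or without WT5. The gene on the other side, nup42, a nuclear pore protein, had a log2 fold change of 0.26 ± 0.25 (SE) and did not pass the threshold. Farther out, tnfaip8l2a, a relative of a mammalian regulator of immune cells, had a value of 0.75 ± 0.29 (SE), and ehmt2, a histone H3 lysine methyltransferase, of -0.47 ± 0.22 (SE). Whether the allele's chromosomal background or the mutation goes with these values cannot be told apart in this design.

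**Figure D2:**
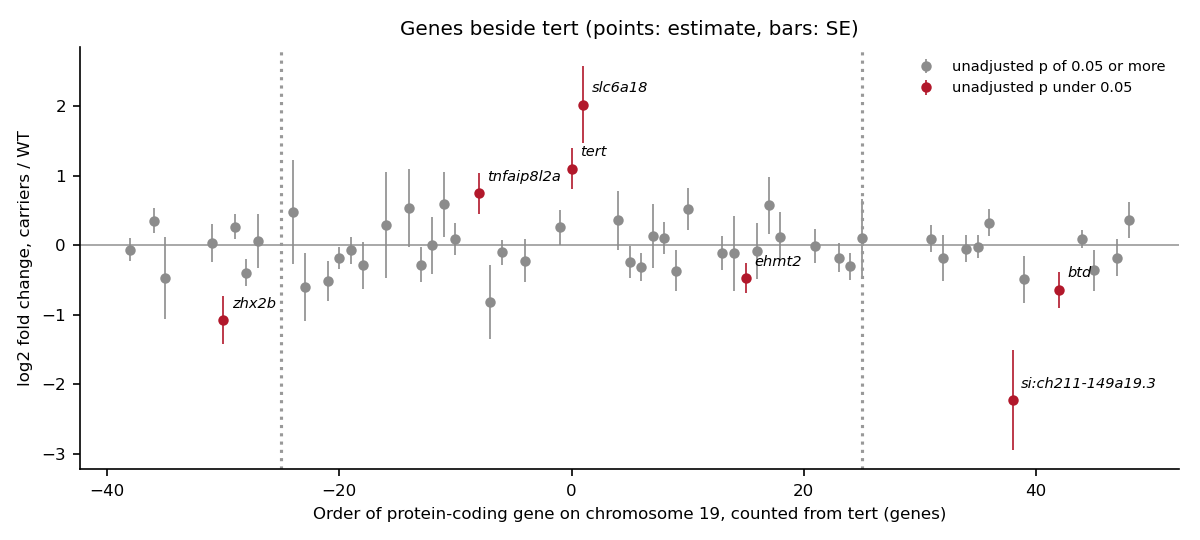
Log2 fold change of carriers against WT skins (points, with bars for SE) for the tested protein-coding genes beside tert, by gene order with tert at 0 and dotted lines at 25 genes on each side. tert at 1.1 and slc6a18 at 2.02 stand side by side, and 3 of the 35 tested neighbours within the lines are at an unadjusted p under 0.05.

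Most genes of a macrophage list had a positive value in carriers, but the list's summed level and its most abundant mpeg1 gene were not higher. Of 34 tested members of a macrophage and dendritic cell list, 29 had a positive log2 fold change, 8 were higher and 0 lower at an unadjusted p under 0.05 (1.22% and 3.19% over all genes tested), and the median was 0.42, against -0.02 over all genes tested. coro1a, a regulator of the leukocyte actin cortex, stood at 20.6, 30.2 and 35.4 CPM in tert-/- skins and 37.4, 47.1, 43.4, 28.7 and 30 CPM in tert+/- skins, against 18.6, 23.3, 18.1, 23 and 23.8 CPM in WT skins. 7 of 8 carriers were above the highest WT skin, and the fit gave a log2 fold change of 0.67 ± 0.19 (SE; edgeR adjusted p = 0.45). 1 of 3 mpeg1 genes (ENSDARG00000055290), which encodes a pore-forming protein that marks zebrafish macrophages, stood at 13.2, 7.37 and 12.4 CPM in tert-/- skins and 10.1, 8.62, 17.1, 8.31 and 8.14 CPM in tert+/- skins, against 7.08, 5.1, 8.59, 5.61 and 3.98 CPM in WT skins. Its log2 fold change was 0.81 ± 0.25 (SE), with 5 of 8 carriers above the highest WT skin. The most abundant mpeg1 gene, ENSDARG00000043093, lay between 5.59 and 93.4 CPM in carriers (median 30.2) and between 5.17 and 64.1 CPM in WT skins (median 35). Its log2 fold change was -0.08 ± 0.60 (SE), that of the other one, ENSDARG00000078569, was 0.78 ± 1.24 (SE), and neither passed the threshold.

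The remaining 6 of the 8 were c1qc (complement component C1q), spi1a (a PU.1 transcription factor of myeloid cells), ncf1 (a subunit of the phagocyte NADPH oxidase), lcp1 (the leukocyte actin bundler L-plastin), mfap4 and fcer1gl, with log2 fold changes between 0.48 and 1.09. c1qc was 8.14, 5.24 and 8.3 CPM in tert-/- skins and 7.62, 5.04, 9.89, 7.04 and 7.35 CPM in tert+/- skins, against 5.14, 4.48, 3.77, 2.37 and 6.25 CPM in WT skins. ncf1 stood between 2.83 and 9.56 CPM in carriers and between 2.86 and 3.27 CPM in WT skins, so that 7 of 8 carriers were above all WT skins and 1 was below. The receptor gene csf1ra, a defining marker, had a log2 fold change of 0.59 and did not pass the threshold. For spi1a the value was 0.98 in tert+/- skins and 0.30 in tert-/- skins, and for ncf1 1.11 and 0.42. The summed level of the list did not separate the groups, at 1072 to 2378 CPM in carriers and 915 to 2673 CPM in WT skins. Its median was 1805 CPM in carriers and 1997 CPM in WT skins, opposite to the direction of most single members. Without WT4 the members at an unadjusted p under 0.05 numbered 5. With no scaling of libraries the median was 0.16, against -0.23 over all genes tested. Medians of other lists given below with no scaling are to be set beside that same -0.23.

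Lists of other white blood cells had 1 or 2 members past the threshold. Over all genes tested 1.22% were higher and 3.19% lower. In the B cell list 1 of 11 tested members was higher (cd22, a B cell surface lectin, 0.87 ± 0.35, SE) and the median was 0.42. With WT1 and WT5 left out, 3 were higher (cd22 and, named after their values were seen, syk and ebf1) and the median was 0.77. Among WT skins WT1 and WT5 had the highest summed levels of the B cell list, 44.6 and 28.9 CPM against 13.9 to 24.4 CPM in the others. cd79a and pax5, the defining B cell markers, were near 0. In the T and NK cell list 2 of 24 were higher, nkl.2 (a granulysin-like killer cell peptide, 1.26 ± 0.35, SE) and il2rga (the common cytokine receptor chain, 0.82 ± 0.34, SE), with a median of 0.20 (-0.06 with no scaling). In the neutrophil list 1 was higher and 1 lower of 17, with a median of 0.00: itgb2, the leukocyte integrin beta chain, at 0.72 ± 0.25 (SE), and cebpa, a myeloid and fat cell transcription factor, at -0.70 ± 0.26 (SE).

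**Figure D3:**
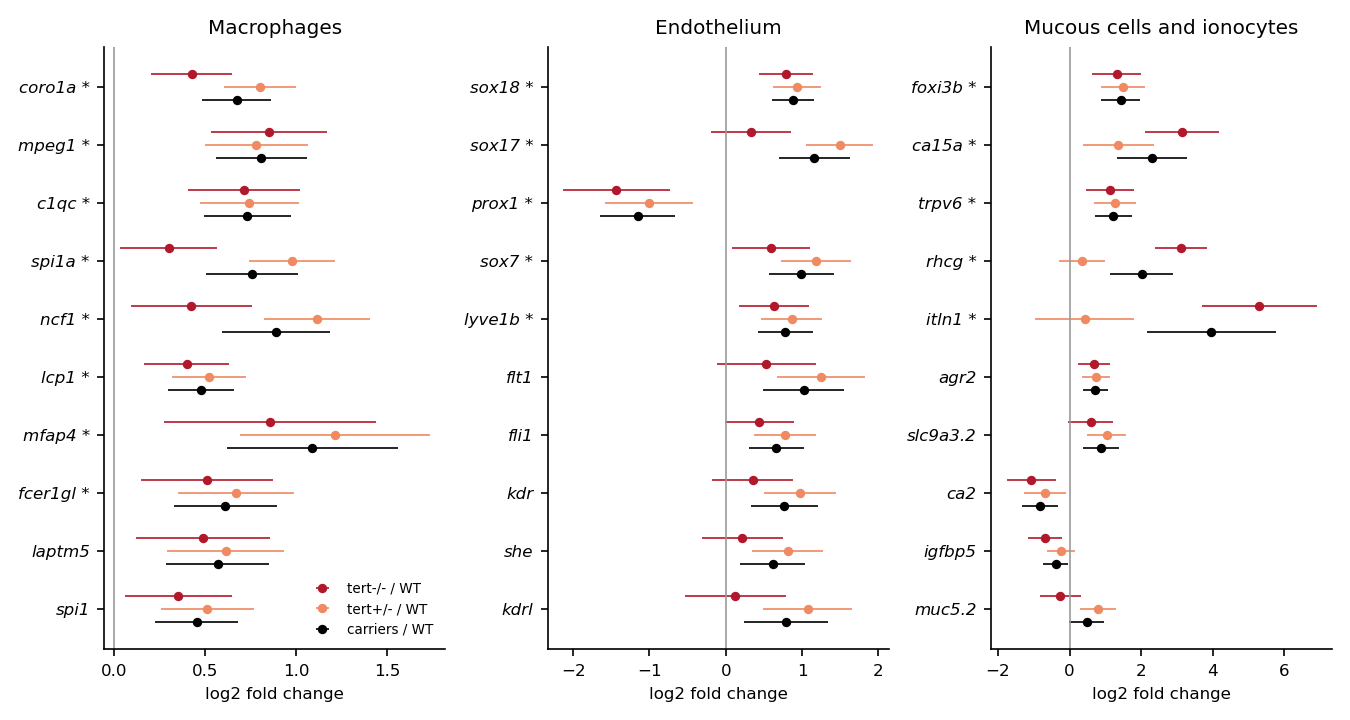
Log2 fold change (points, with bars for SE) of tert-/- skins, tert+/- skins and all carriers against WT skins for the 10 members with the smallest p in the macrophage, endothelium, and mucous cell and ionocyte lists, with an asterisk at an unadjusted p under 0.05. The macrophage members shown lie above 0 in both genotypes, while for rhcg and itln1 the tert-/- value is farther from 0 than the tert+/- value.

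Of 32 tested endothelial genes, 4 were higher in carriers and 1 lower (1.22% and 3.19% over all genes), with a median of 0.44. The SoxF transcription factors, which specify vessels and lymphatics, made up most of these. sox18 stood at 6.38, 8.51 and 9.22 CPM in tert-/- skins and 6.49, 6.44, 7.07, 14.6 and 9.49 CPM in tert+/- skins, against 6.53, 3.99, 3.17, 2.78 and 6.62 CPM in WT skins, with a log2 fold change of 0.88 ± 0.28 (SE; edgeR adjusted p = 0.57). sox7 and sox17 had log2 fold changes of 0.99 ± 0.43 (SE) and 1.16 ± 0.46 (SE), and the lymphatic receptor gene lyve1b had 0.78 ± 0.36 (SE). prox1, the lymphatic fate regulator, was lower at -1.15 ± 0.49 (SE), but its value without WT5 was 0.01. The defining markers kdrl and cdh5 had log2 fold changes of 0.79 and 0.73 and did not pass the threshold. The pattern depended on the libraries used: without HET4 1 member was higher, and without WT1 and WT5 15 were, with 0 lower and a median of 1.1. WT1 and WT5 had the highest summed levels of this list among WT skins, 318 and 522 CPM against 149 to 284 CPM in the others. Leaving them out thus in itself raises the list's fold changes. The summed level of the list overlapped, at 157 to 599 CPM in carriers and 149 to 522 CPM in WT skins.

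Of 27 tested genes of mucous cells, club cells and ionocytes, 5 were higher in carriers and 0 lower (1.22% and 3.19% over all genes), with a median of 0.15 (-0.04 with no scaling). They were foxi3b, the ionocyte transcription factor of zebrafish (1.43 ± 0.55, SE), trpv6, an epithelial calcium channel (1.22 ± 0.53, SE), rhcg (ENSDARG00000003203), an ammonia channel (2.02 ± 0.88, SE), ca15a, a carbonic anhydrase (2.31 ± 0.98, SE), and itln1, a secreted lectin (3.97 ± 1.8, SE). foxi3b was measured at 0.209, 1.34 and 0.249 CPM in tert-/- skins and 0.595, 0.85, 0.458, 0.721 and 0.75 CPM in tert+/- skins, against 0.0303, 0.206, 0.352, 0.231 and 0.372 CPM in WT skins. ca15a was at 0 CPM in 2 tert+/- skins. The genotype values were for rhcg 0.35 in tert+/- and 3.11 in tert-/- skins against WT, and for itln1 0.43 and 5.31. The p-values of tert-/- against tert+/- skins for these genes are not reported here. Without WT1 and WT5, 1 of the list was higher at an unadjusted p under 0.05. As each library was left out in turn, this number lay between 2 (without HOM2) and 4 (without HOM3).

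Of the 35 lists, that of the liver had the lowest median. Of 62 tested members of a liver list, 54 were lower and 0 higher at an unadjusted p under 0.05 (3.19% and 1.22% over all genes tested), with a median log2 fold change of -3.90. apob, the lipoprotein scaffold, stood at 0.835, 1.73 and 9.96 CPM in tert-/- skins and 1.9, 5.53, 5.24, 5.25 and 5.33 CPM in tert+/- skins, against 79.5, 21.5, 1.13, 3.87 and 602 CPM in WT skins. WT5 alone was far above all other skins, WT1 and WT2 were next, and WT3 and WT4 lay within the range of carriers. f9, a coagulation factor, lay between 0.119 and 0.913 CPM in carriers, against 3.45, 1.89, 0.950, 0.405 and 38.8 CPM in WT skins. uox (urate oxidase) had the same shape, with 268 CPM in WT5, and the defining markers fabp10a, tfa and apoa2 reached 2559, 11754 and 7868 CPM there. WT5 held the highest level of 58 of the 62 members. The summed level of the list was 950 to 2296 CPM in carriers and 978 to 60428 CPM in WT skins. Without WT5, 17 members were lower with a median of -1.64. Without WT1 and WT5, 0 were lower and 1 was higher, with a median of -0.15. Whether the other genes that were high in WT5 and WT1 go with these liver transcripts was not tested directly. Those libraries were left out, and values of a fit with the liver list as a covariate are given in the closing sections.

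**Figure D4:**
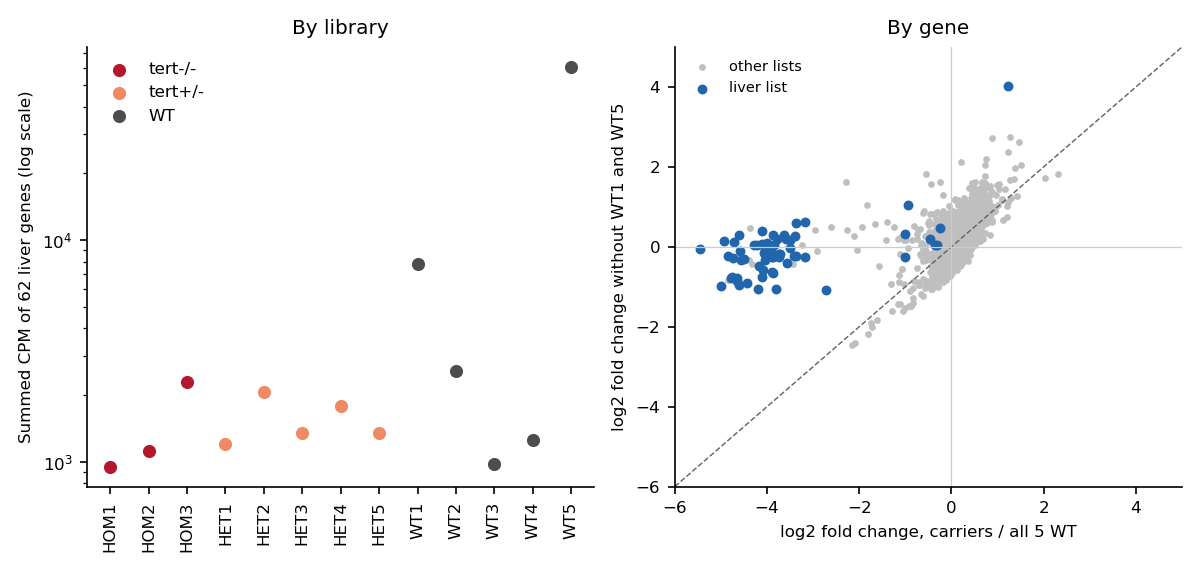
The left plot gives the summed level of 62 liver genes in each library in CPM on a log axis, with tert-/-, tert+/- and WT skins from left to right. WT5 is at 60428 CPM, while carriers reach 2296 CPM. The right plot sets each list member's log2 fold change against all 5 WT skins (horizontal) beside that without WT1 and WT5 (vertical), and the liver genes, with a median of -3.90 on the first, have a median of -0.15 on the second.

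A few retinoid and steroid genes, a subject of the study, were lower in carriers. Retinoids are vitamin A derivatives that are carried by binding proteins and act through nuclear receptors. Of 55 tested retinoid genes 0 were higher and 5 lower in carriers (1.22% and 3.19% over all genes tested), with a median of -0.09. Of the 55, 15 had their highest level in WT5. The 5 were both rbp2 genes (cellular retinol carriers), ttr (transthyretin, the plasma carrier of thyroid hormone and retinol binding protein), aldh8a1 (a retinal dehydrogenase) and stra6l (a retinol transporter). rbp2 (ENSDARG00000093774) lay between 0.418 and 2.55 CPM in carriers, against 29.8, 5.76, 0.352, 0.983 and 149 CPM in WT skins, with a log2 fold change of -4.84 ± 1.08 (SE; edgeR adjusted p = 0.44). Its WT3 and WT4 levels were within or below the carriers' range. Without WT1 and WT5 the rbp2 value was -0.84, and in the list 4 genes were higher and 1 lower, with a median of 0.12.

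Of 44 tested steroid genes 0 were higher and 7 lower (1.22% and 3.19% over all genes tested), with a median of -0.07. The 7 were cyp3a65 and shbg (the plasma carrier of sex steroids), sult1st4 and ugt1a1 (conjugating enzymes), akr1a1a, comt and hsd17b3. cyp3a65, a cytochrome P450, had a log2 fold change of -4.39 ± 1.05 (SE; edgeR adjusted p = 0.44) and 52.9 CPM in WT5, while all carriers were between 0.139 and 1.21 CPM. Without WT1 and WT5, 2 steroid genes were higher and 0 lower. Some genes of other lists also had other values without these libraries. Of 33 antioxidant genes 1 was higher (gpx1b, a glutathione peroxidase, 0.87) and 2 lower, against 1.22% and 3.19% over all genes tested. Without WT1 and WT5 0 passed. The lower ones, gpx4a and cat, had log2 fold changes of -3.44 and -2.04, and -0.42 and -0.09 without WT1 and WT5. fn1 (fibronectin, made by liver as well as by fibroblasts) had -2.61 and 0.49, xdh (xanthine dehydrogenase) -2.26 and 0.43, and the lipid droplet gene plin2 -2.12 and 0.26. Of the pancreas and intestine list, apoa4b.1 and fabp2 were lower at -4.37 and -2.28, and their values were 0.47 and 1.61 without both libraries. amy2al1, an amylase gene among those with the smallest p, stood at 33.5 CPM in WT5 and between 0.394 and 1.3 CPM in carriers.

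A few neuronal genes were lower in carriers. Of 29 tested nerve and Schwann cell genes 4 were lower and 0 higher (3.19% and 1.22% over all genes tested), with a median of 0.03 (-0.19 with no scaling). elavl4, a neuronal RNA-binding protein, stood at 0.557, 0.841 and 1.49 CPM in tert-/- skins and 0.774, 0.668, 1.44, 0.79 and 0.713 CPM in tert+/- skins, against 0.696, 8.8, 0.563, 0.925 and 4.13 CPM in WT skins. WT2 and WT5 were above all other skins, and the other 3 WT skins lay within the carriers' range. sncb (beta-synuclein), stmn2 (ENSDARG00000033234) and snap25 (ENSDARG00000058117), which encode proteins of axons and synapses, had log2 fold changes of -1.73, -2.16 and -2.09 and likewise their highest level in WT2 and the next in WT5. Without WT2, 0 members of the list were lower, while without WT5 there were 4. Leaving out WT1 and WT5 gave 5 lower and 2 higher (sncg and tubb5, named after their values were seen), with a median of 0.18. The developmental transcription factors zic2 and neurod1, named after their values were seen, had the same 2 high libraries. neurod1 stood at 15.4 CPM in WT2 and 13.3 CPM in WT5, at most 0.636 CPM in the other WT skins, and between 0.0343 and 1.18 CPM in carriers. The summed level of the nerve list was 275 to 865 CPM in carriers and 283 to 948 CPM in WT skins.

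Some genes were lower in carriers also without WT1 and WT5. pon2, a paraoxonase family lactonase, stood at 3.11, 4.06 and 2.49 CPM in tert-/- skins and 3.87, 2.49, 1.9, 2.47 and 2.85 CPM in tert+/- skins, against 6.05, 4.73, 4.01, 6.36 and 6.62 CPM in WT skins. 7 of 8 carriers were below the lowest WT skin, with a log2 fold change of -0.93 ± 0.21 (SE; edgeR adjusted p = 0.44) and an adjusted p of 0.0067 in DESeq2. DESeq2 no longer called pon2 without WT1 or without WT5. cpeb4, a regulator of mRNA polyadenylation named after its values were seen, stood at 23.1, 25.4 and 23.7 CPM in tert-/- skins and 26.7, 17.7, 20.8, 20.2 and 23.2 CPM in tert+/- skins, against 30.7, 26.6, 38.6, 45 and 31.9 CPM in WT skins. It had a log2 fold change of -0.62 ± 0.15 (SE; edgeR adjusted p = 0.44), and -0.71 without WT1 and WT5. olfm1, a secreted olfactomedin glycoprotein, was lower at -2.65 ± 0.58 (SE), and its value was -1.49 without WT1 and WT5. WT5 had 27.2 CPM, the other WT skins 2.84 to 3.99 CPM, and 7 of 8 carriers were below all of them. nos2, the inducible nitric oxide synthase, stood at 3.55, 3.56 and 1.08 CPM in tert-/- skins and 2.74, 2.25, 3.93, 4.05 and 2.55 CPM in tert+/- skins, against 8.53, 10.1, 4.01, 3.18 and 4.43 CPM in WT skins, with a log2 fold change of -1.02 ± 0.34 (SE; edgeR adjusted p = 0.62). WT1 and WT2 were above all other skins and WT3 and WT4 lay within the carriers' range. The nos2 value was -0.94 without WT1 and WT5 and -0.79 without WT2.

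Gene lists that bear on telomere loss had few members past the threshold, which 1.22% of all genes tested passed as higher and 3.19% as lower. tert was the only one of 24 tested telomerase and telomere genes higher in carriers, and 0 were lower. The next smallest p was that of nvl, a nucleolar ATPase that binds telomerase in human cells, at -0.30 ± 0.15 (SE), which did not pass. In the list of p53 targets and senescence genes 0 of 38 were higher and 1 lower, gadd45g, a growth arrest and stress gene, at -1.3 ± 0.47 (SE). Its level was 8.05, 44.5 and 33.4 CPM in tert-/- skins and 33.3, 6.68, 12.7, 24.3 and 37.9 CPM in tert+/- skins, against 102, 50.6, 72.2, 20.9 and 62.9 CPM in WT skins, and the groups overlapped. In the p53 list, WT1 and WT5 had the highest summed levels among WT skins, 2160 and 1796 CPM against 1265 to 1751 CPM in the others. Without WT1 and WT5 the balance of this list turned to 4 higher and 0 lower. Among them, named after their values were seen, were phlda3, btg2 and igfbp1, at 0.74, 1.43 and 1.6 without both libraries and 0.29, 0.48 and 0.45 with all. Of 37 DNA repair genes 1 was higher, xpc, the damage sensor of nucleotide excision repair, at 0.40 ± 0.17 (SE). In the cell cycle list 0 of 44 passed, with a median of 0.17 (-0.03 with no scaling), and in the inflammatory list 1 of 29 was lower (nos2). In the interferon list 0 of 41 passed, with a median of -0.17. The summed interferon level lay between 728 and 6101 CPM in carriers and between 623 and 6111 CPM in WT skins, and its median was between -0.40 and 0.23 as each library was left out and -0.72 without WT1 and WT5.

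**Figure D5:**
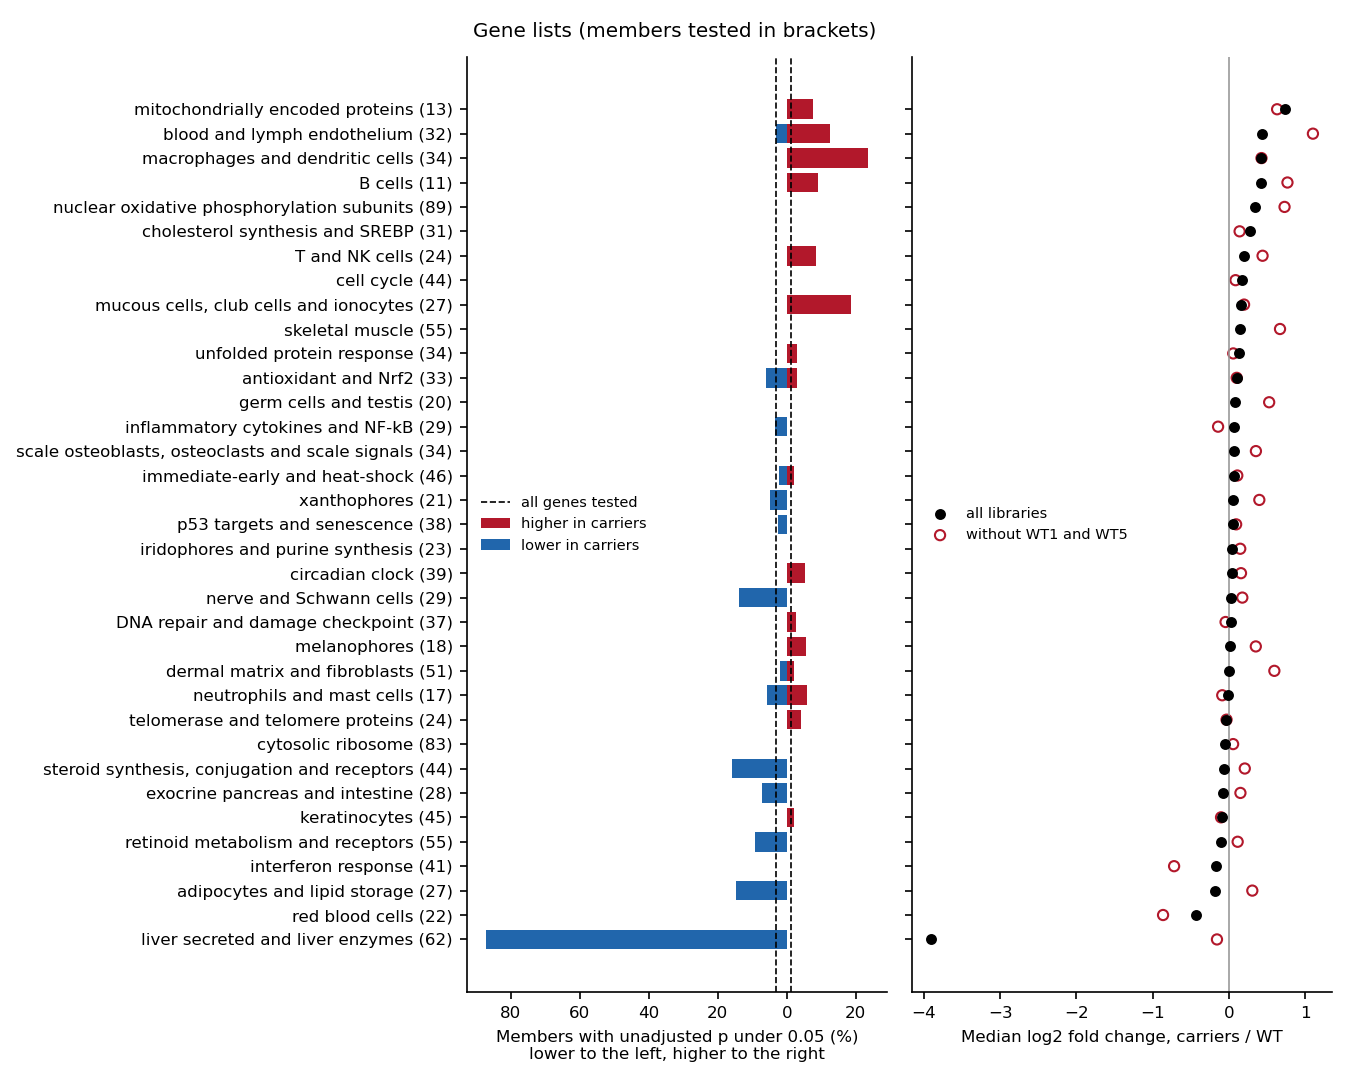
For each of 35 gene lists, the left plot gives the percent of tested members lower (to the left) and higher (to the right) in carriers at an unadjusted p under 0.05, with dashed lines for all genes tested (3.19% and 1.22%). The right plot gives the median log2 fold change with all libraries (filled) and without WT1 and WT5 (open), which for the liver list are -3.90 and -0.15.

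Of 34 genes of the unfolded protein response, ddit3 alone was higher, and trib3, a pseudokinase induced downstream of it, had 0.46 ± 0.23 (SE) and did not pass. Of 46 immediate-early and heat-shock genes dusp5, a MAP kinase phosphatase, was higher at 0.72 ± 0.24 (SE), and egr4, an activity-induced transcription factor, was lower at -1.80 ± 0.73 (SE). Of these 46, 4 were higher and 2 lower without WT1 and WT5. With all libraries 1.22% of all genes tested were higher and 3.19% lower, to be set beside these lists and the next. 2 of 39 clock genes were higher: per2, a light-induced clock gene in zebrafish, stood at 51.6, 19.4 and 28.5 CPM in tert-/- skins and 34.1, 64, 34.6, 71.3 and 32.3 CPM in tert+/- skins, against 27.3, 34.4, 14.7, 18.5 and 23.3 CPM in WT skins, with a log2 fold change of 0.83 ± 0.32 (SE; edgeR adjusted p = 0.88), and cry5 had 1.29 ± 0.57 (SE). For both, 4 of 8 carriers lay above the highest WT skin. Without WT3, and likewise without WT4, 0 clock genes were higher. The sampling hour is not given in the sources used here.

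Among genes of mitochondrial respiration 1 passed the threshold. All 13 mitochondrially encoded protein genes had a positive value, with a median of 0.74, and 1, mt-atp8, was at an unadjusted p under 0.05. This number lay between 0 and 13 as each library was left out. All 13 were past it without HOM1, the carrier with the lowest mitochondrial share, and likewise without WT4, and 0 were without WT1 and WT5. Of 89 tested nuclear genes of oxidative phosphorylation, 88 had a positive value with a median of 0.34 and 0 passed, and 2 were higher without WT1 and WT5. HET5 had the highest summed level of this list (29419 CPM), and without HET5 the median was 0.05. With no scaling it was 0.11. The median was 0.56 in tert+/- skins and -0.13 in tert-/- skins. The list of skeletal muscle, which reached 9643 to 101055 CPM in carriers and 5391 to 129889 CPM in WT skins, had 0 of 55 past the threshold and a median of 0.15 (-0.12 with no scaling). In the cholesterol synthesis list 0 of 31 passed, with medians of -0.05 in tert+/- and 0.66 in tert-/- skins against WT. The red blood cell list had 0 of 22 past the threshold and a median of -0.43, and 0.77 without WT2. In the list of fat cells and lipid storage 4 of 27 were lower, namely plin2, cebpa, agpat2 and acaca, and 0 higher (3.19% and 1.22% over all genes tested), with a median of -0.18. WT5 held the highest level of 13 of the 27, and without WT1 and WT5 1 was lower (cebpa) and 1 higher (fabp4a), with a median of 0.31. 0 of 83 cytosolic ribosome genes and 0 of 20 germ cell genes passed.

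With all libraries, few genes of the skin's own cell types passed the threshold. Of 45 keratinocyte genes 1 was higher, cyt1, a type I keratin, at 0.94 ± 0.35 (SE) and a level of at most 1.28 CPM. Of 51 genes of dermal matrix and fibroblasts, col5a3a, a fibrillar collagen chain, was higher at 0.80 ± 0.36 (SE) and fn1 was lower as given above, with a median of 0.01 (-0.18 with no scaling). With both libraries WT1 and WT5 left out, 7 were higher and 1 lower, with a median of 0.60. Among the higher were lox, which encodes a collagen crosslinking enzyme (1.47), and dcn, which encodes decorin (0.87), both named after their values were seen. WT1 and WT5 had the highest summed levels of the dermal list among WT skins, 29869 and 26251 CPM against 7110 to 14212 CPM in the others. 0 of 34 scale genes passed. Of the pigment cells, 1 of 18 melanophore genes was higher, tfec, a pigment lineage transcription factor, at 0.61 ± 0.28 (SE), 1 of 21 xanthophore genes was lower (xdh), and 0 of 23 iridophore genes passed. Counted over all 35 lists, 115 of 1245 tested memberships were at an unadjusted p under 0.05, 32 of them higher and 83 lower in carriers (4.42%, 1.22% and 3.19% over all genes tested), and 54 of the 83 were those of the liver list.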

How the data were processed

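Skin RNA of 13 zebrafish samples had been sequenced from Illumina TruSeq RNA v2 libraries. The authors deposited raw read counts per gene. The submitters' processing notes name bcl2fastq 1.8.4, STAR 2.4.1d, featureCounts 1.4.6-p4 and the build GRCz10, with no order or settings. They also deposited a table named RPKM, treated here as a score: counts divided by its values implied gene lengths with a median coefficient of variation of 32.3% between samples when each library's own total was used, and of 0.0026% when the 13 library totals were recycled along the table's rows. That table served only as an alternative.

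Groups were taken from the sample labels. The members, the 35 gene lists and the tests were chosen with earlier results of these data known. Of 32105 gene IDs, 26269 (81.8%) matched a symbol. The 18250 genes kept by filterByExpr entered an edgeR 4.0.16 fit under R 4.3.3 (TMM scaling with factors from 0.767 to 1.44, robust quasi-likelihood fit, two-sided, Benjamini-Hochberg adjustment, threshold 0.05), with a median dispersion of 0.164. CPM values use the scaled library totals and fold changes are log2 of carriers over WT. No 2 libraries agreed within sampling noise, the smallest mean chi-square per gene being 65.7. Single values per sample were compared by exact permutation tests. Gene order around tert came from a RefSeq table of another assembly (GRCz12tu), used for names and order only. No sequences or coordinates were used.

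Named genes were tert, the 5 with the smallest p in each direction, the 2 members of each list with the smallest p, neighbours of tert at an unadjusted p under 0.05, and up to 5 genes in each direction without overlap and with a mean of at least 1 CPM. The values of other named genes were known when they were picked: spi1a, c1qc, ncf1, sox7, trpv6, prox1, stmn2, snap25, fabp10a, tfa, apoa2, aldh8a1, stra6l, cpeb4, zic2, neurod1, zgc:172053, pkhd1l1, the genes of the closing paragraphs and all other list members given with a value.

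Alternatives were DESeq2 1.42.0, limma 3.58.1 on log2(score + 0.1) and log2(score + 1), other scaling and filters, a surrogate variable from sva 3.50.0, marker list covariates, number of mutant alleles, runs of sample numbers as a block, and leaving out libraries. DESeq2 without libraries, DESeq2 at an adjusted p under 0.1, and limma-voom with sample weights were added after seeing the data. The fitting step was tested on simulated data.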

Additional observations from a re-analysis of the deposited data

Results flagged for a closer look

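In 360 groups of 4 to 10 samples, 19 had a highest or lowest sample whose gap to its neighbour took an unusual share of the group's range, against a chance rate of about 1 in 20. The number flagged is near that rate, and the single cases are given as description only. The numbers that follow are that share.

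WT5 stood apart among WT skins for olfm1 (0.851), myo5a, a myosin motor of pigment granules (0.903), agpat2, an acyltransferase of lipid synthesis (0.810), rps27l, a ribosomal protein paralogue (0.744), and the mean of the inflammatory list (0.722). For olfm1, agpat2 and rps27l WT5 was the highest of the 5, and for myo5a it was the lowest. WT4 was the lowest WT skin for cd22 (0.808), and WT1 stood apart in the mean of the cell cycle list (0.733).

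Among all 8 carriers, HOM3 was lowest for nos2 (0.551), HET2 highest for the simple epithelial keratin krt18a.1 (0.661), and HET4 lowest for col5a3a (0.571). HOM1 was lowest for mt-nd3, a mitochondrially encoded complex I subunit (0.582), and in the mean of the mitochondrially encoded list (0.559). It also stood apart in the means of the unfolded protein response list (0.635) and the retinoid list (0.549).

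Within tert+/- skins, HET1 was lowest for apob (0.950) and shbg (0.734), HET3 was highest for elavl4 (0.785) and mt-nd3 (0.730), and HET5 stood apart in the mean of the unfolded protein response list (0.725).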

How the results depend on the processing

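edgeR called 0 genes in all of its alternatives, including each left-out library, and limma and limma-voom called 0. limma ran on the scores, which fit library totals recycled along the rows and not each library's own total. Its values therefore cannot show how far a result holds under other processing. limma-voom ran on the counts. DESeq2 called 205, and 4 without WT1 and WT5. As each library was left out, DESeq2 called between 0 and 293 genes, with 0 without WT1, 2 without WT5 and 136 without HET5. For tert, DESeq2 gave 1.1 with an adjusted p of 0.034. The difference in total counts was -440931 and changed sign as libraries were left out, over a range of -1830210 to 926979. The difference in mitochondrial share was 13.5 points without HOM1 (exact permutation test, p = 0.0227), and 8.31 to 13.6 over all left-out libraries. Genes without overlap numbered 9, between 11 and 47 with 1 library fewer, and 150 without WT1 and WT5. Groups of fewer samples separate more easily, so these counts are not directly comparable. With 10 genes on each side of tert, 14.3% were at an unadjusted p under 0.05, and 10.9% with 50.

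Genes higher at an unadjusted p under 0.05 (223) numbered 399 in DESeq2, 15 and 13 in limma on the scores (+ 0.1 and + 1), 45 with no scaling, 367 with no filter, 135 by number of mutant alleles, 582 with a surrogate variable, 1019 with the liver covariate, 516 without WT1 and WT5 (949 in DESeq2), 412 in limma-voom, 148 without WT3 and 499 without WT5. Genes lower (583) numbered 340 and 359 in limma, 960 with no scaling and 1053 with no filter. Higher against lower thus reversed in balance without WT1 and WT5. With no scaling the median of all genes was -0.23, against -0.02.

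Reversed log2 fold changes under limma on the scores (+ 0.1, + 1) were xpc (-0.33, -0.23), itgb2 (-0.036, -0.034), ldlrb (-0.23, -0.21) and dnase1l4.2 (-0.13, -0.075). For hbaa2 the value was 0.22 (+ 0.1), with 0.63 in limma-voom and 0.26 without WT2. The values from the scores carry the limit given above. hmgb2b was -0.000225 with no scaling. With the liver covariate and without WT1 and WT5, the values were 0.83 and 0.47 for apoa4b.1, 1.51 and 1.61 for fabp2, 0.014 and 0.43 for xdh, 0.38 and 0.49 for fn1 (0.50 in DESeq2), and 0.22 and 0.30 for rps27l. fabp2 was 0.46 in limma-voom and 0.66 without WT5, and rps27l 0.031 and 0.19. With each library left out in turn, fabp2 ranged from -2.65 to 0.66, hbaa2 from -1.71 to 0.26 and rps27l from -0.51 to 0.19. Of 2566 values of 82 named genes under the alternatives, 2517 kept their direction and their side of an adjusted p of 0.05. No gene had passed that adjusted threshold in edgeR, so this count does not show a loss of the unadjusted threshold. For rbp2 (ENSDARG00000093774) the unadjusted edgeR p was 0.00058 with all libraries and 0.26 without WT1 and WT5. The cause of each change was not tested beyond the libraries left out and the covariate fits.

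No paired analysis was possible because the labels carry no replicate numbers shared between genotypes. 3 tert-/- skins and the small number of WT skins limit what these data can show. WT5 held the highest level of 409 of the 583 genes lower in carriers. Of these 583, 554 were tested without WT1 and WT5. There 415 kept their direction, and 108 also an unadjusted p under 0.05.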

Other observations

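A set of 66 genes was higher in carriers (0.362% of those tested) and 85 were lower (0.466%) at an unadjusted p under 0.05 both with all libraries and with each of the 13 libraries left out in turn. Of the 85 lower genes, 70 had their highest level in WT5, as had 13.4% of all genes tested. Genes chosen as lower in carriers tend to have their highest level in a WT skin. The liver list, with 62 of the 18250 genes tested, held 17 of the 85, and 22 of the 85 were still at that threshold without WT1 and WT5. Of the 66 higher genes, 5 were in the macrophage list, which held 34 of the genes tested, and 47 were still at that threshold without WT1 and WT5.

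Some of these 66, chosen after their values were seen, are leukocyte genes outside the macrophage list. All 66 were selected as higher, so the direction of these genes is no separate result about leukocytes. In the neutrophil list 8 tested members had a positive value and 9 a negative one. ptpn6, a phosphatase of blood cell signalling, had a log2 fold change of 0.57 and sash3, a lymphocyte adaptor, 0.72. mrc1b, a mannose receptor gene, had a log2 fold change of 1.27 and reached 16.6 CPM in HOM3, while the other carriers lay between 2.67 and 5.64 CPM and WT skins between 1.45 and 2.98 CPM. For sash3 the log2 fold change was 0.95 in tert+/- and 0.23 in tert-/- skins, and for mrc1b 0.77 and 1.84. The p-values of tert-/- against tert+/- skins are not reported here for these genes.

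Among other carriers' transcripts with uneven levels, zgc:172053 stood at 3.41, 2.03 and 17.1 CPM in tert-/- skins and 5.54, 5.16, 101 (HET3), 2.61 and 1.09 CPM in tert+/- skins, against at most 2.01 CPM in WT skins. arf4b, a small GTPase gene, lay between 0.343 and 9.53 CPM in carriers and between 0.298 and 0.950 CPM in WT skins. Without WT1 and WT5, DESeq2 called zgc:172053, tmem204, trpc6 and sox18. tmem204 is an endothelial junction gene and had a log2 fold change of 0.88 with all libraries and 1.29 without the pair, while trpc6, a cation channel gene, had 0.00 and 1.83.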
